A study of Mus musculus with 9 samples.

Results

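The genes described here are 33 genes known for their expression in astrocytes, taken by symbol from a table of 22255 Ensembl gene identifiers. All 33 were found in the table, and all 33 were among the 14512 genes that passed the filter on low counts. The RNA came from synaptoneurosomes of the mouse hippocampus, a tissue fraction enriched in pinched-off synaptic terminals. Every animal was an Fmr1 knockout (labelled Fmr1 KO) of the C57Bl/6J strain, a model of fragile X syndrome, so the controls carried the same deletion as the treated mice. Of the 9 samples, 4 came from mice given AM6545 sub-chronically (replicates A, B, C and E) and 5 from mice given vehicle (replicates A to E). AM6545 is an antagonist of the cannabinoid receptor CB1 that enters the brain poorly. Dose, duration and age are not given in the sources used here, and no sample from mice with an intact Fmr1 gene was analysed. The labels do not say whether each sample was a separate animal, so p-values measure the spread between these samples, part of which may be technical.

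Astrocytes are the glial cells whose fine processes wrap synapses and whose endfeet cover blood vessels. They take up glutamate and GABA from the synaptic cleft, turn glutamate into glutamine that is returned to neurons, buffer potassium and water, pass ions and metabolites to each other through gap junctions, and secrete lipoproteins and matrix proteins. Some of their mRNAs, among them those of glutamate transporters, are carried into the processes and translated there, while others stay mainly in the cell body. A synaptoneurosome fraction can hold perisynaptic astrocyte processes attached to the terminals as well as remains of cell bodies. In such bulk samples, fewer astrocytes or processes and less RNA per cell cannot be told apart.

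Total counts ran from 17628922 to 27263393 per sample, and each of the 33 genes had between 206 and 79415 counts in a sample. Values are given as CPM, counts scaled to a common library size with the TMM factor, which lines up the bulk of genes between samples. The comparison of AM6545 with vehicle was made over all 14512 genes with edgeR's quasi-likelihood test and Benjamini-Hochberg adjustment, and 0 genes (0% of those tested) had an adjusted p under 0.05. The smallest adjusted p was 0.653, and 1047 genes (7.21%) had an unadjusted p under 0.05. DESeq2 and limma-voom also gave 0 genes past the adjusted threshold, with 1160 and 1823 at an unadjusted p under 0.05. Markers of neurons were abundant in every sample, with summed levels of 8718 to 9907 CPM in AM6545 samples and 8091 to 11077 CPM in vehicle samples. Those of oligodendrocytes, the myelin-forming cells, summed to 13412 to 19200.2 CPM in AM6545 samples and 11097 to 23022 CPM in vehicle samples. Mbp alone had a mean of 9017 CPM among them, so sums of different lists do not compare amounts of cell types. Microglial markers summed to 1198 to 1527 CPM in AM6545 samples and 879 to 1467 CPM in vehicle samples. None of the 12 markers of any of these 3 lists was at 0 in a sample.

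Of all counts, the 33 astrocyte genes took 1.74% ± 0.0546 with AM6545 (n = 4, SD) and 1.78% ± 0.311 with vehicle (n = 5, SD). The share ran from 1.38% in vehicle C (95% Wilson interval 1.37% to 1.39%, counting error only) to 2.12% in vehicle A (2.12% to 2.13%). Levels of different genes were set against each other per kilobase of transcript. On that scale, in vehicle samples (SD, n = 5), the secreted protease inhibitor Cst3 stood at 2149.7 ± 713 CPM per kilobase and the lipoprotein Apoe at 2138 ± 665, so that their order cannot be told from these samples. The chaperone Clu followed at 1096 ± 288 CPM per kilobase, and then the glycolytic enzyme Aldoc at 905 ± 167 and the matrix protein Sparcl1 at 903 ± 109.9, which did not differ beyond their spread.

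The glutamate transporter Slc1a3 was at 219.6 ± 51.2 CPM per kilobase in vehicle samples (SD, n = 5), and Slc1a2, whose annotated transcript is 11595 bases long, was at 82.5 ± 17.5. At the low end came the GABA transporter Slc6a11 at 9.79 ± 1.94 CPM per kilobase, the urea transporter Slc14a1 at 8.23 ± 1.17 and the cystine-glutamate exchanger Slc7a11 at 1.39 ± 0.200. The soma markers were spread over the range, from Aldoc near the top to the transcription factor Sox9 at 19.1 ± 0.823 CPM per kilobase and the growth factor receptor Fgfr3 at 14.3 ± 1.96. Transporters and soma markers thus overlapped in level.

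**Figure D1:**
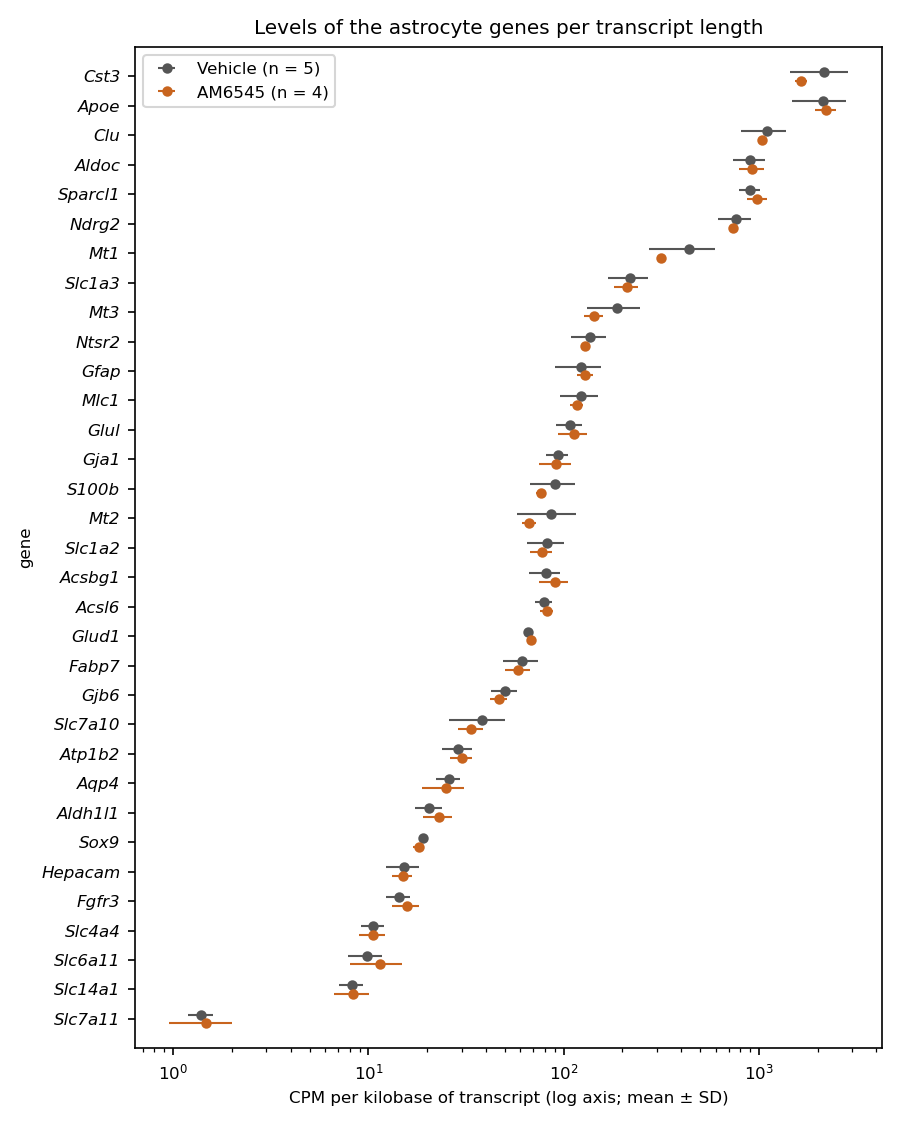
Levels of the 33 astrocyte genes as CPM per kilobase of transcript on a log axis, mean ± SD, for vehicle (grey, n = 5) and AM6545 (orange, n = 4) samples. The genes span from 1.39 CPM per kilobase for Slc7a11 to 2149.7 for Cst3 in vehicle, and the error bars of the groups meet for all 33 genes.

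None of the 33 genes passed the threshold for a difference between AM6545 and vehicle samples. In edgeR's quasi-likelihood test 14 of them were higher and 19 lower with AM6545, with log2 fold changes from -0.47 to 0.22 and adjusted p from 0.653 to 0.989. Their median log2 fold change was -0.029, beside -0.0090 over all genes tested, of which 48.2% were higher. At an unadjusted p under 0.05 there were 2 of the 33, the metallothioneins Mt1 and Mt3, both lower. Over all genes 4.18% were lower at that level and 3.03% were higher, so 2 of 33 is near the background. DESeq2 placed 2 of the 33 at that level and limma-voom 0, and neither placed any past the adjusted threshold. With single samples left out the count of 2 became 0 without AM6545 B, AM6545 C, AM6545 E or vehicle A, 1 without vehicle D, 3 without vehicle B or C, and 5 without vehicle E. The CPM ranges of the groups overlapped for each of the 33 genes, beside 1.45% of all genes whose ranges did not.

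The fits still bound the size of a change for most of these genes. For 27 of the 33 the 95% interval of the fold change lay within 1.5-fold in either direction, and for all 33 within 2-fold. Standard errors ran from 0.084 to 0.20 on the log2 scale. Counts were also simulated to match these samples in level, dispersion and depth. There the same test recovered 48.8% of genes changed by 1.5-fold and 80.3% of genes changed by 2-fold. Those genes came from the whole table and varied independently, while groups of genes shifted together between the real samples. Recovery also depends on how many genes change, a number that was set in the simulation. The shares therefore need not hold for the 33 genes.

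**Figure D2:**
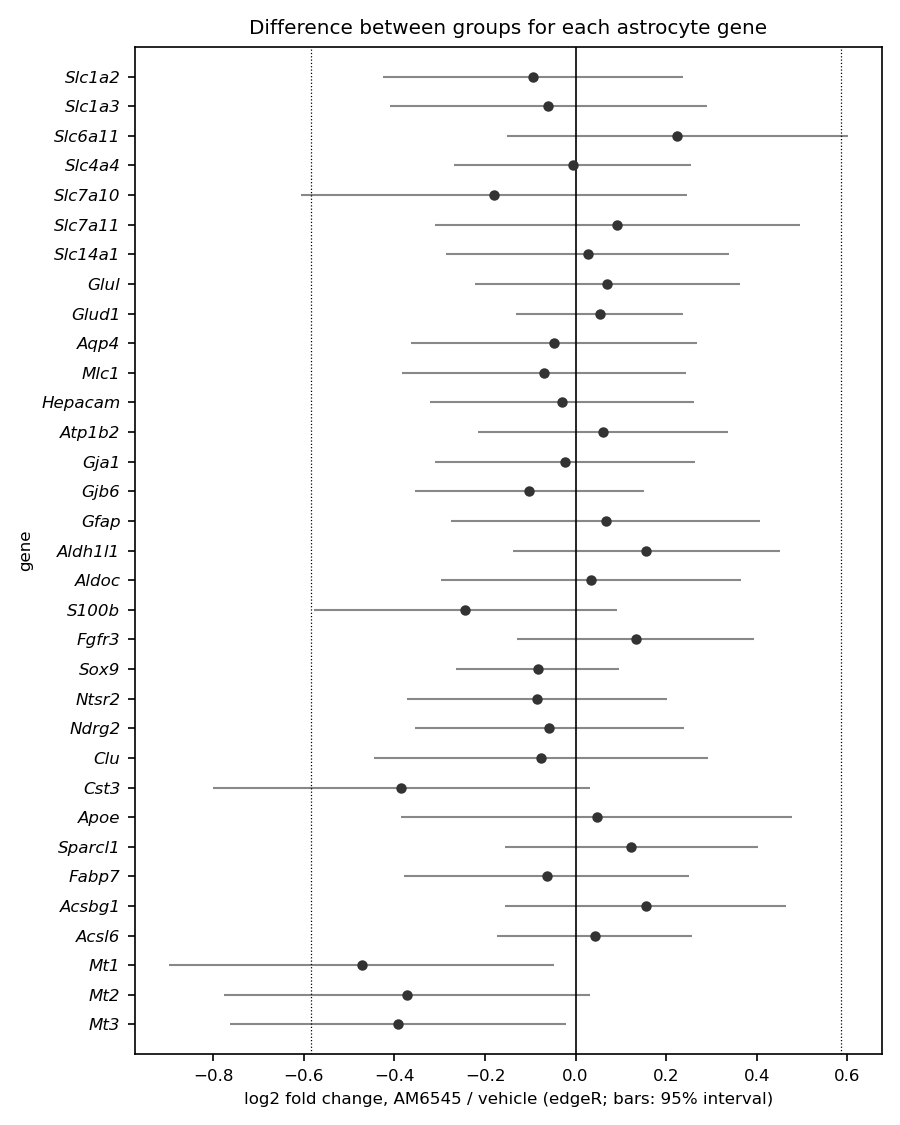
Log2 fold change of AM6545 over vehicle for each astrocyte gene from edgeR (points) with its 95% interval (bars), in the order of their roles from transporters at the top to metallothioneins at the bottom. Dotted lines mark a 1.5-fold change; no point lies beyond them, and the intervals of Mt1 and Mt3 are the 2 that lie wholly below 0.

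The samples of the vehicle group differed more among themselves than those of the AM6545 group. The summed level of the 33 genes was 21629, 19539, 13546, 19867 and 14702 CPM in vehicle A to E. It was 17274, 17697, 17098 and 17642 CPM in AM6545 A, B, C and E, all within the vehicle range. Vehicle A, B and D were thus above every AM6545 sample and vehicle C and E below every one. Per gene, the coefficient of variation was larger in vehicle samples for 23 of the 33 genes, with a median of 19.00% against 12.1% in AM6545 samples; this difference in spread was not tested.

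Vehicle C had the lowest vehicle level for 17 of the 33 genes and vehicle E for 12, and neither had the highest level of any. Vehicle B was highest for 14, vehicle A for 13 and vehicle D for 6. In vehicle C the summed astrocyte level was 71.5% of the mean of the other vehicle samples. Other glial lists were also lowest in that sample, with oligodendrocyte markers at 11097 CPM and microglial markers at 879 CPM, while the neuronal markers were highest there, at 11077 CPM. Their part in the astrocyte levels was not tested.

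Among the treated samples, AM6545 E stood at one or the other end for 27 genes. It was the highest AM6545 sample for 18 of the 33, including all 7 transporters and both gap junction genes, and the lowest for 9, including Glul, Glud1, Aldh1l1, Aldoc, Sox9 and Acsbg1. AM6545 B was lowest for 14 genes, among them 5 of the 7 transporters, and highest for 8, among them Aldh1l1, Aldoc, Sox9, Ndrg2, Apoe and Acsbg1. The astrocyte genes therefore did not move as one block among the 4 treated samples. With AM6545 E left out, the median log2 fold change of the 33 genes was -0.081 and 10 were higher. Without vehicle A, 22 of the 33 were higher, without vehicle B 20 were, and without vehicle C 9 were.

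**Figure D3:**
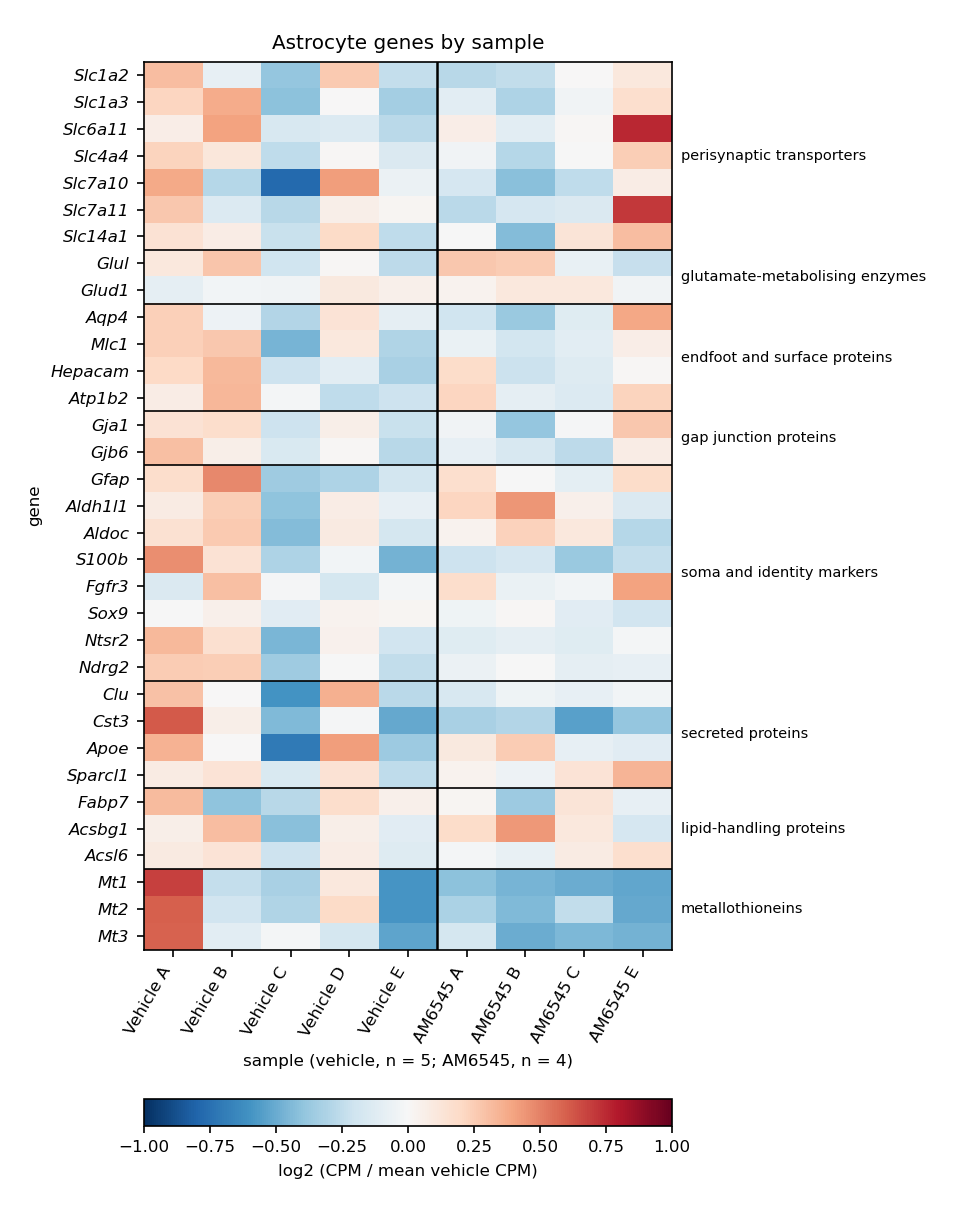
Heat map of the 33 astrocyte genes (rows, grouped by role) in the 9 samples (columns), coloured by the log2 ratio of each sample's CPM to the mean vehicle CPM. Vehicle A is above the vehicle mean (red) in 30 rows, vehicle C in 0 and vehicle E in 4; AM6545 E is red across the transporters at the top and blue for the metallothioneins at the bottom.

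The transporters are membrane proteins of astrocytes, grouped here as perisynaptic, and their place in the cell was not measured. Slc1a2 (GLT-1, ENSMUSG00000005089.16), the main glutamate transporter of the forebrain, was at 788, 806, 959.7 and 1032 CPM in AM6545 A, B, C and E. In vehicle A to E it was at 1187, 902, 734, 1149.8 and 811 CPM. The highest values were those of vehicle A and D and the lowest that of vehicle C, so the AM6545 samples lay inside the vehicle range. The group means were 897 ± 119 CPM with AM6545 (n = 4, SD) and 957 ± 203 CPM with vehicle (n = 5, SD), and the log2 fold change was -0.094 (SE 0.15; 95% interval -0.42 to 0.24) with edgeR adjusted p = 0.873.

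Slc1a3 (GLAST, ENSMUSG00000005360.15), the other glutamate transporter of astrocytes, was at 849, 739, 893 and 1027 CPM in AM6545 A, B, C and E and at 1058, 1185, 689, 916 and 722 CPM in vehicle A to E. Vehicle B was highest here and vehicle C again lowest, with the AM6545 samples in between. Its log2 fold change was -0.060 (SE 0.16; 95% interval -0.41 to 0.29), edgeR adjusted p = 0.932. Parts of the annotated transcripts of Slc1a2 and Slc1a3 are at least 95% identical over 100 bases or more to those of 1 and 3 other genes of the table, so part of their counts is uncertain.

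Slc6a11 (GAT-3, ENSMUSG00000030307.9), which takes up GABA into astrocyte processes, had the largest positive log2 fold change of the 33 genes, 0.22 (SE 0.18; 95% interval -0.15 to 0.60), edgeR adjusted p = 0.717. It was at 42.4, 37.6, 40.8 and 68.3 CPM in AM6545 A, B, C and E and at 42.3, 53.6, 36.2, 36.8 and 33.5 CPM in vehicle A to E. AM6545 E was the highest of the 9 samples, and the other 3 AM6545 samples lay among the vehicle values. Without AM6545 E the log2 fold change was -0.0075.

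Slc7a11 (xCT, ENSMUSG00000027737.11), which exchanges cystine for glutamate and so feeds glutathione synthesis, showed the same sample at the top. Its level was 10.6, 11.4, 11.6 and 20.9 CPM in AM6545 A, B, C and E and 15.5, 11.7, 10.6, 13.4 and 13.02 CPM in vehicle A to E. The log2 fold change of 0.092 (SE 0.19; 95% interval -0.31 to 0.49) became -0.19 without AM6545 E. Stretches of its annotated transcripts are shared with 4 other genes of the table, the tubulins Tuba1a, Tuba1b and Tuba1c among them, so its low level is uncertain. The levels of Slc6a11 and Slc7a11 thus stood apart in 1 library.

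The remaining transporters had log2 fold changes between -0.18 and 0.027. Slc4a4, the sodium bicarbonate cotransporter that regulates pH, had a log2 fold change of -0.0067 (SE 0.12; 95% interval -0.27 to 0.26), and Slc14a1, a urea transporter, of 0.027 (SE 0.15; 95% interval -0.29 to 0.34). Slc7a10 (Asc-1), an exchanger of small neutral amino acids, had its lowest value, 43.5 CPM, in vehicle C and its highest, 99.5 CPM, in vehicle D, a range that held all 4 AM6545 samples (55.7 to 78.6 CPM). Its log2 fold change was -0.18 (SE 0.20; 95% interval -0.61 to 0.25); it overlaps Lrp3 on the opposite strand, and the strand setting of the counting is not given in the sources used here. The value for Slc7a10 was -0.054 without vehicle D, -0.071 without vehicle A, -0.11 without AM6545 B, -0.28 without AM6545 E and -0.32 without vehicle C. Of the 7 transporters, 3 were higher and 4 lower, with a median log2 fold change of -0.0067. Without AM6545 E that median was -0.14.

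Inside the astrocyte, Glul (glutamine synthetase, ENSMUSG00000026473.17) turns the glutamate taken up into glutamine. It was at 362, 358, 285 and 256 CPM in AM6545 A, B, C and E and at 323, 363, 262, 303 and 249.7 CPM in vehicle A to E. AM6545 A and B and vehicle B were the high samples and AM6545 E and vehicle E the low ones, so both groups covered the same range. The log2 fold change was 0.070 (SE 0.14; 95% interval -0.22 to 0.36), edgeR adjusted p = 0.896. Glud1, the mitochondrial glutamate dehydrogenase found in most brain cells, was among the steadiest of the 33 genes, at 231 ± 10.4 CPM with AM6545 (n = 4, SD) and 223 ± 11.4 CPM with vehicle (n = 5, SD). Its log2 fold change was 0.053 (SE 0.086; 95% interval -0.13 to 0.24). Glul overlaps Teddm2 on the opposite strand.

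**Figure D4:**
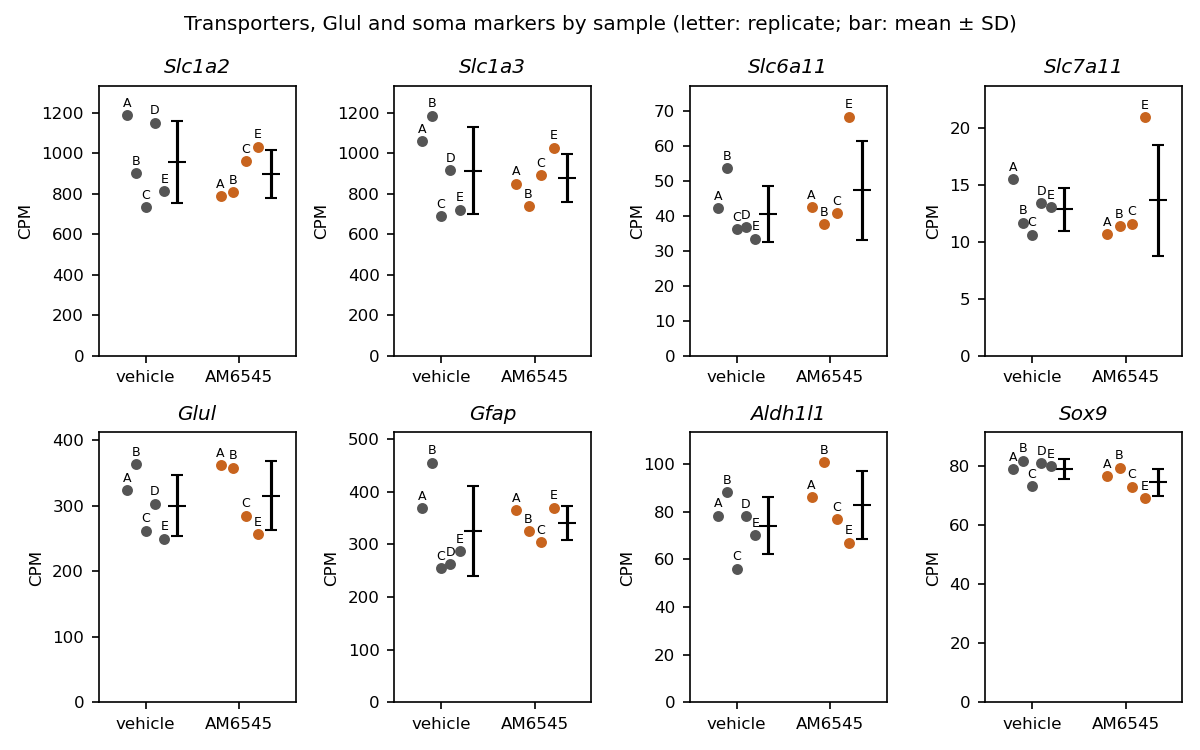
CPM of 4 transporters, Glul and 3 soma markers in each vehicle (grey) and AM6545 (orange) sample, with the replicate letter above each point and the mean ± SD as a black bar. AM6545 E stands above the other AM6545 samples for Slc6a11, at 68.3 CPM, and for Slc7a11, at 20.9 CPM, and is the lowest AM6545 sample for Glul, Aldh1l1 and Sox9.

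Aqp4 (ENSMUSG00000024411.12), the water channel of astrocyte endfeet, was at 113, 101, 119 and 169.7 CPM in AM6545 A, B, C and E and at 154, 126, 106, 143 and 122 CPM in vehicle A to E. AM6545 E was the highest of all samples and AM6545 B the lowest, so the treated group spanned the vehicle group. The log2 fold change was -0.048 (SE 0.15; 95% interval -0.36 to 0.27), edgeR adjusted p = 0.940. Mlc1 and Hepacam, membrane partners at astrocyte contacts, had log2 fold changes of -0.070 and -0.029, and Atp1b2, the beta subunit of the astrocytic sodium pump, of 0.061. In this group 1 of 4 genes was higher, with a median log2 fold change of -0.038.

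Of the gap junction proteins, Gja1 (connexin 43, ENSMUSG00000050953.11) was at 284, 223, 288 and 351 CPM in AM6545 A, B, C and E and at 322, 329, 253, 304 and 249 CPM in vehicle A to E. Again AM6545 E was highest and AM6545 B lowest of the 9, and its log2 fold change was -0.024 (SE 0.13; 95% interval -0.31 to 0.26), edgeR adjusted p = 0.966. Its annotated transcript shares such similar stretches with 2 other genes, Glcci1 and Slc38a6, so part of its count is uncertain. Gjb6 (connexin 30) ran from 88.3 to 111 CPM in AM6545 samples and from 86.96 to 129.9 CPM in vehicle samples, a log2 fold change of -0.10 (SE 0.12; 95% interval -0.35 to 0.15).

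The soma and identity markers are genes used to recognise astrocytes, from a cytoskeletal protein and cytosolic enzymes to a nuclear factor and membrane receptors. Gfap (ENSMUSG00000020932.15), the intermediate filament protein that accumulates in reactive astrocytes, was at 365, 325, 304 and 369.8 CPM in AM6545 A, B, C and E and at 368, 455, 255, 262 and 287 CPM in vehicle A to E. Vehicle B was the highest sample and vehicle C the lowest, with the AM6545 samples between them. Its log2 fold change was 0.066 (SE 0.16; 95% interval -0.27 to 0.41), edgeR adjusted p = 0.919.

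Aldh1l1 (ENSMUSG00000030088.16), a folate enzyme used as a general astrocyte marker, was at 86.2, 101, 76.9 and 67.1 CPM in AM6545 A, B, C and E. In vehicle A to E it was at 78.3, 88.1, 56.2, 78.1 and 70.3 CPM. AM6545 B was the highest sample and vehicle C the lowest, and the log2 fold change was 0.16 (SE 0.14; 95% interval -0.14 to 0.45), edgeR adjusted p = 0.745. Without AM6545 B it was 0.047, and without vehicle C 0.071. Sox9 (ENSMUSG00000000567.6), a nuclear transcription factor of astrocytes, varied least of the soma markers between vehicle samples. It was at 76.8, 79.6, 73.1 and 69.2 CPM in AM6545 A, B, C and E and 79.03, 81.9, 73.3, 81.1 and 80.2 CPM in vehicle A to E. AM6545 E was the lowest sample and vehicle B the highest, and the groups overlapped. Its log2 fold change was -0.084 (SE 0.084; 95% interval -0.26 to 0.097), edgeR adjusted p = 0.778.

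Fgfr3 (ENSMUSG00000054252.19), a fibroblast growth factor receptor, was at 68.3, 57.6, 59.4 and 79.9 CPM in AM6545 A, B, C and E and at 54.7, 74.4, 60.02, 53.6 and 59.6 CPM in vehicle A to E. AM6545 E was again the highest sample, and the log2 fold change of 0.13 (SE 0.12; 95% interval -0.13 to 0.39) was 0.030 without it. S100b, a calcium-binding protein also made by oligodendrocytes, ran from 104 to 120.1 CPM in AM6545 samples and from 96.8 to 186 CPM in vehicle samples, with a log2 fold change of -0.24 (SE 0.16; 95% interval -0.58 to 0.092). That value was -0.099 without vehicle A, where S100b was highest; it overlaps Dip2a on the opposite strand. Aldoc (0.034), the neurotensin receptor Ntsr2 (-0.086) and Ndrg2 (-0.058) had log2 fold changes near 0. Of these 8 soma and identity markers 4 were higher and 4 lower, with a median of -0.012, beside -0.0067 for the transporters.

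Ratios of counts within a sample, which do not depend on the scaling of libraries, were used to set transporters against each other and against soma markers. The ratio of Slc1a2 to Slc1a3 counts was 0.929, 1.09, 1.07 and 1.005 in AM6545 A, B, C and E and 1.12, 0.761, 1.06, 1.25 and 1.12 in vehicle A to E. Both transporters were thus counted at nearly equal numbers in most samples, with vehicle B and D at the ends. The mean log2 ratio differed by -0.039 between AM6545 and vehicle (two-sided exact permutation p = 0.794, adjusted p = 0.968 over the 3 ratios).

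The ratio of Slc1a2 to Sox9 was 10.3, 10.1, 13.1 and 14.9 in AM6545 A, B, C and E and 15.02, 11.02, 10.01, 14.2 and 10.1 in vehicle A to E. Low and high ratios occurred in both groups, whose ranges nearly coincided, and the difference in mean log2 ratio was 0.0071 (two-sided exact permutation p = 0.968, adjusted p = 0.968). The ratio of Slc1a3 to Aldh1l1 ran from 7.34 in AM6545 B to 15.3 in AM6545 E, while vehicle samples lay between 10.3 and 13.5. Its mean log2 value was 3.41 ± 0.44 with AM6545 (n = 4, SD) and 3.61 ± 0.16 with vehicle (n = 5, SD), lower than the vehicle mean in 3 of 4 AM6545 samples. The difference of -0.19 did not pass (two-sided exact permutation p = 0.413, adjusted p = 0.968), where 0.0159 is the smallest p that 4 against 5 samples allow. It was larger than the SD of the vehicle samples and smaller than that of the AM6545 samples. Without AM6545 B it was -0.016, and without AM6545 E -0.37 (two-sided exact permutation p = 0.0714, adjusted p = 0.214).

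Secreted proteins held 4 of the 5 highest levels per kilobase. Apoe (ENSMUSG00000002985.17), which carries cholesterol from astrocytes to neurons, was at 2685, 3000.4, 2370.2 and 2323 CPM in AM6545 A, B, C and E and at 3201, 2524, 1537, 3349 and 1948 CPM in vehicle A to E. Vehicle D and A were the highest samples and vehicle C the lowest, and the log2 fold change was 0.047 (SE 0.20; 95% interval -0.38 to 0.48), edgeR adjusted p = 0.957. Clu (clusterin), an extracellular chaperone, had a log2 fold change of -0.077 (SE 0.17; 95% interval -0.45 to 0.29). Its range was 1780.2 to 1943 CPM in AM6545 samples against 1310.4 to 2544 CPM in vehicle samples. Sparcl1 (hevin), which promotes synapse formation, had a log2 fold change of 0.12 (SE 0.13; 95% interval -0.16 to 0.40).

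Cst3 (cystatin C, ENSMUSG00000027447.7), an inhibitor of cysteine proteases that microglia also make, had the third most negative log2 fold change of the 33 genes, -0.38 (SE 0.19; 95% interval -0.80 to 0.032), edgeR adjusted p = 0.653. It was at 1474, 1505, 1271 and 1412 CPM in AM6545 A, B, C and E and at 2828, 1922, 1362, 1834 and 1299 CPM in vehicle A to E. Vehicle A was far above the other samples, while vehicle C and E were within the AM6545 range. All 4 AM6545 samples were below the vehicle mean, but so were vehicle C, D and E, and without vehicle A the log2 fold change was -0.18. The 3 lipid-handling proteins had values nearer to 0. Fabp7, a fatty acid-binding protein of astrocytes and neural progenitors, had a log2 fold change of -0.064 (SE 0.15; 95% interval -0.38 to 0.25), the acyl-CoA synthetase Acsbg1 of 0.15 (SE 0.15; 95% interval -0.16 to 0.47) and its relative Acsl6 of 0.042 (SE 0.10; 95% interval -0.17 to 0.26).

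The metallothioneins are small proteins that bind zinc and copper. Mt1 and Mt2 are induced by zinc, glucocorticoids and oxidative stress, the zinc response passing through the factor Mtf1 and short metal response elements in their promoters. Mt3 is the form enriched in brain and is not induced in this way. The 3 genes were at their highest in the same vehicle sample and had the lowest log2 fold changes of the list with Cst3. For this reason the 250 bases before the annotated start of each in RefSeq (GRCm38.p6) are shown. These windows lie on the plus strand at chr8:94178839-94179088 for Mt1, chr8:94172368-94172617 for Mt2 and chr8:94152357-94152606 for Mt3. Capitals mark matches on either strand to the letters TGCACNC or TGCGCNC, the core of the metal response element, where N is any base.
Mt1: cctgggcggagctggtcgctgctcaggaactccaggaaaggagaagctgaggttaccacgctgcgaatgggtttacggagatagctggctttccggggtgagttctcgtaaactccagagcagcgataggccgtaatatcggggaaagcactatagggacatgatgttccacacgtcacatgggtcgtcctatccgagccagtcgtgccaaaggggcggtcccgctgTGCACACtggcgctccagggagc
Mt2: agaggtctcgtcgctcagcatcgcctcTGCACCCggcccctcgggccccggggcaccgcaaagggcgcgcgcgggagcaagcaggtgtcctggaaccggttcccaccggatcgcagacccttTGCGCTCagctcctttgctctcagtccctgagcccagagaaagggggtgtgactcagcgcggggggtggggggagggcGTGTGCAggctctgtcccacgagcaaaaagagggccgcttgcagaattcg
Mt3: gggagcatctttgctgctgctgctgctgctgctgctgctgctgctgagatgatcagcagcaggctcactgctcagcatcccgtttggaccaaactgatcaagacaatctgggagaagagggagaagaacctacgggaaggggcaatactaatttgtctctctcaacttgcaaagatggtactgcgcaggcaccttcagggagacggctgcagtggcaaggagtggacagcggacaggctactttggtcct

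In these windows Mt2 had 3 matches, Mt1 had 1 and Mt3 had 0. Of 32851 promoters of the same length, 21.4% held at least 1 match and 1.26% held at least 3. Of the 33 astrocyte genes 27 had a promoter in the table, and 8 of these genes held a match before at least 1 of their annotated starts, a count per gene that cannot be set against the shares per promoter. A match is a description of letters and not of binding, and its absence says only that these letters are not in this window. Each window ends at an annotated start, and bases after it or further upstream were not searched. Where the start in use differs from the annotated one, the window may miss the promoter beside it. The counts therefore do not rank the promoters of Mt1 and Mt2. Nor do they give the number of metal response elements that a gene has.

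Mt1 (ENSMUSG00000031765.9) was at 181, 174, 169.8 and 167 CPM in AM6545 A, B, C and E and at 386, 204, 192, 258 and 159 CPM in vehicle A to E. The AM6545 samples lay close together, below 4 of the 5 vehicle samples and above vehicle E, and vehicle A was the highest by a wide margin. The means were 173 ± 5.84 CPM with AM6545 (n = 4, SD) and 239.9 ± 89.1 CPM with vehicle (n = 5, SD). Its log2 fold change, the most negative of the 33, was -0.47 (SE 0.20; 95% interval -0.90 to -0.048). The unadjusted p of edgeR's quasi-likelihood test was 0.0317 and the adjusted p 0.653, so the difference did not pass the threshold.

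Mt2 (ENSMUSG00000031762.8) was at 35.5, 32.5, 37.3 and 30.9 CPM in AM6545 A, B, C and E. In vehicle A to E it was at 66.7, 38.6, 35.9, 50.3 and 29.3 CPM. Its order of vehicle samples, from A over D, B and C to E, was that of Mt1, and the AM6545 samples lay between vehicle E and vehicle B. The log2 fold change was -0.37 (SE 0.19; 95% interval -0.78 to 0.031), with an unadjusted edgeR p of 0.0678 and an adjusted p of 0.653. Mt3 (ENSMUSG00000031760.10), which held no match, was at 89.3, 71.3, 73.8 and 72.8 CPM in AM6545 A, B, C and E and at 151, 93.7, 99.6, 89.4 and 70.04 CPM in vehicle A to E. Vehicle A was again the highest and vehicle E the lowest sample, and AM6545 A stood above the other 3 treated samples. The log2 fold change was -0.39 (SE 0.17; 95% interval -0.76 to -0.021), with an unadjusted edgeR p of 0.0399 and an adjusted p of 0.653.

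For all 3 metallothioneins every AM6545 sample was below the vehicle mean. Vehicle A carried much of the difference: without it the log2 fold changes were -0.24 for Mt1, -0.18 for Mt2 and -0.20 for Mt3. These transcripts are also the 3 shortest of the list. The 5 genes with transcripts under 1000 bases (Mt1, Mt2, Mt3, Cst3 and Fabp7) were all lower, with a median of -0.38. This group holds the genes already picked out by the lowest log2 fold changes of the list, and only Fabp7, at -0.064, adds to them. Of the other 28 genes 14 were higher, with a median of 0.010. The part of transcript length in these values was not tested. When each sample's trend of counts with transcript length was removed, the log2 fold changes were -0.16 for Mt1, -0.049 for Mt2 and -0.088 for Mt3. With limma-voom, which weighted the samples by their spread, they were -0.23, -0.12 and -0.14. Its weights ran from 0.445 for AM6545 E to 2.60 for AM6545 A, with 0.613 for vehicle A and 2.06 for vehicle E. The part of any single weight in these values was not tested.

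Markers of choroid plexus, the epithelium that secretes cerebrospinal fluid, also differed between these samples. Their summed level was 724, 568, 70.9 and 982 CPM in AM6545 A, B, C and E and 4144, 326, 58.9, 4489 and 2229.6 CPM in vehicle A to E. All 10 of these markers were lower with AM6545, and 0 passed the adjusted threshold of edgeR's test. At an unadjusted p under 0.05 in that test 3 were lower, beside 4.18% of all genes. The same 4.18% is the background for the ependymal and endothelial markers below. Aqp1 was at 0 in at least 1 sample. The sums were highest in vehicle D and A and lowest in vehicle C and AM6545 C. With the choroid plexus level as a covariate, an alternative added after seeing the data, the log2 fold changes were -0.35 for Mt1, -0.28 for Mt2 and -0.36 for Mt3. Apoe and Clu, also highest in vehicle D and A, were at 0.23 and 0.066 with this covariate, against 0.047 and -0.077 without it. The part of choroid plexus RNA in the levels of Apoe and Clu was not tested. The 8 ependymal markers were all lower too, 4 of them at an unadjusted p under 0.05 and with a median log2 fold change of -0.65, and had sums of 19.2 to 23.2 CPM in AM6545 samples and 18.96 to 44.1 CPM in vehicle samples. Of 9 endothelial markers tested 2 were higher and 7 lower, 2 of the latter at an unadjusted p under 0.05, with sums over the list of 63.3 to 79.4 CPM in AM6545 samples and 51.6 to 109.6 CPM in vehicle samples. The part of ependymal and endothelial cells in the metallothionein levels was not tested.

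**Figure D5:**
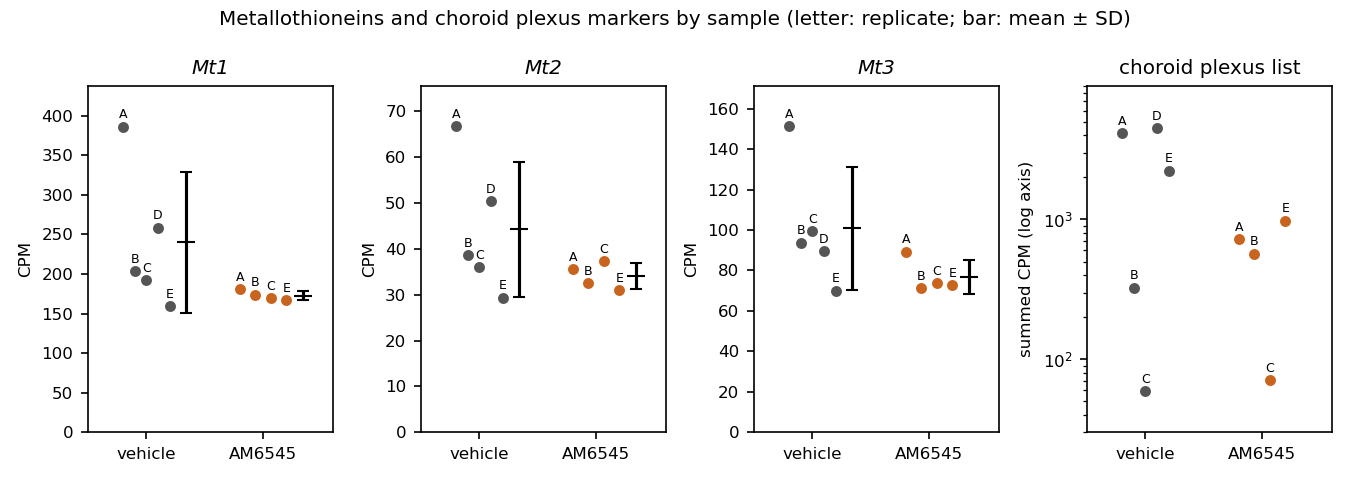
CPM of Mt1, Mt2 and Mt3 in each vehicle (grey) and AM6545 (orange) sample, with mean ± SD as black bars, beside the summed CPM of 10 choroid plexus markers on a log axis. Vehicle A is highest for all 3 metallothioneins, at 386, 66.7 and 151 CPM, and the choroid plexus markers are highest in vehicle D and A.

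Genes of the same cells and pathways outside the 33 were read as lists, and 0 of their genes passed the adjusted threshold of edgeR's test. Over all genes tested 48.2% were higher, the median log2 fold change was -0.0090 and 7.21% were at an unadjusted p under 0.05. Of 30 other astrocyte genes 13 were higher, with a median log2 fold change of -0.0099, and 2 were at an unadjusted p under 0.05. These were Slc25a18, a mitochondrial glutamate carrier, at 95.4 ± 4.59 CPM with AM6545 (n = 4, SD) and 83.1 ± 6.75 CPM with vehicle (n = 5, SD), giving a log2 fold change of 0.20 (SE 0.089, edgeR adjusted p = 0.653), and Chrdl1, a secreted BMP antagonist. Chrdl1 was at 4.35 ± 0.716 CPM with AM6545 (n = 4, SD) and 3.34 ± 0.474 CPM with vehicle (n = 5, SD), giving a log2 fold change of 0.39 (SE 0.17, edgeR adjusted p = 0.653). Both were above the vehicle mean in 4 of 4 AM6545 samples, which adds nothing to the p by which they were picked.

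The partners of the glutamate and GABA cycle, such as the glutamine carriers Slc38a1 and Slc38a3 and the neuronal vesicular transporter Slc17a7, were higher in 14 of 17, with a median log2 fold change of 0.14. None was at an unadjusted p under 0.05, and several are neuronal genes. The neuronal markers were likewise higher in 8 of 12, with a median of 0.12. Over all genes 48.2% were higher, which is the background for each list of this paragraph. Of the potassium buffering and endfoot genes, among them the channel Kcnj10, 5 of 10 were higher, with a median of 0.020. For glycogen and lactate handling the count was 6 of 12, with a median of 0.0045. For lipoprotein and sterol handling, which includes the Apoe receptor Lrp1 and the lipid exporter Abca1, 10 of 12 were higher, with a median of 0.093. Of the zinc handling genes, among them Mtf1 and the zinc exporter Slc30a1, 5 of 8 were higher, with a median of 0.083.

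Genes that mark reactive astrocytes were split. Of 33 such genes 27 were tested, 14 higher and 13 lower, with a median log2 fold change of 0.017, and Lcn2, Steap4, Timp1, Tgm1 and Slc10a6 were at 0 in at least 1 sample. At an unadjusted p under 0.05 were 3, beside 7.21% of all genes. Fkbp5, a chaperone induced by glucocorticoids, was at 39.6 ± 2.90 CPM with AM6545 (n = 4, SD) and 32.8 ± 3.84 CPM with vehicle (n = 5, SD), giving a log2 fold change of 0.27 (SE 0.10, edgeR adjusted p = 0.653). Tm4sf1, a surface protein also found on vessels, was at 7.92 ± 0.997 CPM with AM6545 (n = 4, SD) and 10.7 ± 2.87 CPM with vehicle (n = 5, SD), giving a log2 fold change of -0.43 (SE 0.19, edgeR adjusted p = 0.653). Srgn, a proteoglycan of blood and vascular cells, was at 3.39 ± 0.841 CPM with AM6545 (n = 4, SD) and 4.80 ± 1.08 CPM with vehicle (n = 5, SD), giving a log2 fold change of -0.49 (SE 0.22, edgeR adjusted p = 0.653).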

How the data were processed

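Libraries were prepared from total RNA with a SMARTer kit for low input, per the labels' protocols. The table deposited by the authors holds estimated counts per Ensembl gene, not scaled between samples. Salmon 1.3 and DESeq2 1.30, and the builds GRCm39 and mm10, are named in the submitters' processing notes with no role or order; the strand setting is not given in the sources used here. Symbols were found for 22155 of 22255 identifiers. Estimated counts were rounded, genes filtered with filterByExpr, libraries scaled with TMM and the groups tested by the quasi-likelihood method of edgeR 4.0.16 under R 4.3.3. A standard error is the size of the log2 fold change over the root of its F value, and intervals use the t quantile of the fit's degrees of freedom. The test was tried on 3 simulated data sets, where false calls made up 5.91% of calls. Every pair of samples differed by more than sampling noise (chi-square over its degrees of freedom 10.03 to 89.98).

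Transcript lengths are medians over APPRIS principal transcripts of GENCODE M21, and similar transcripts were found with blastn 2.17.0. Ratios were tested with scipy 1.17.1. Alternatives were other scalings and filters, DESeq2 1.42.0, limma-voom (limma 3.58.1), a block on the title letter, each sample left out, length trends removed (lowess span 0.3) and, added after seeing the data, a choroid plexus covariate. The members, the lists of other astrocyte, cycle, endfoot, glycogen, sterol, zinc and reactive genes and the marker lists were chosen with earlier results of these data known. Values in every sample are given for 13 chosen genes, for genes at an unadjusted p under 0.05, for the 3 of smallest p on either side, and for genes with a sample that stood apart. Of each other list, up to 3 genes at an unadjusted p under 0.05 are named.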

Additional observations from a re-analysis of the deposited data

Results flagged for a closer look

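For the 33 genes, their summed roles and the 3 ratios, the gap between the extreme sample and its neighbour was divided by the whole range (Dixon's ratio), with 95% critical values of 0.829 for 4 samples and 0.710 for 5. Of 90 groups of values 3 had such a sample, where chance gives about 1 in 20, or 4.5. Slc6a11 stood apart in AM6545 E, at 68.3 CPM against 37.6 to 42.4 CPM in the remaining treated samples, a Dixon's ratio of 0.842. Slc7a11 stood apart in the same sample, at 20.9 CPM against 10.6 to 11.6 CPM in the remaining treated samples, a Dixon's ratio of 0.908. Mt3 stood apart in AM6545 A, at 89.3 CPM against 71.3 to 73.8 CPM in the remaining treated samples, a Dixon's ratio of 0.864.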

How the results depend on the processing

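None of the 33 genes passed an adjusted p of 0.05 under any of the 18 alternatives. The number at an unadjusted p under 0.05 was 2 in the comparison of all samples, 0 with limma-voom sample weights, with length trends removed and with the choroid plexus covariate, 1 with the replicate block, and 0 to 5 with each sample left out. Over all genes that number was 1047, 1823 with limma-voom sample weights and 496 (without vehicle A) to 1848 (without AM6545 E) with each sample left out, where 0 to 1 gene passed the adjusted threshold, the 1 without AM6545 A. The count of astrocyte genes with a positive log2 fold change, 14 of 33, ran from 9 to 22 with each sample left out. Direction was kept in 540 of 594 pairs of gene and alternative and turned in 54, and 13 genes, the metallothioneins and Cst3 among them, kept it throughout. Turned values with all samples were, with the choroid plexus covariate, Slc1a2 0.0041, Slc4a4 0.039, Slc7a10 0.059, Aqp4 0.037, Gja1 0.0061, Clu 0.066 and Fabp7 0.030. With limma-voom sample weights they were Slc7a11 -0.12, Hepacam 0.10 and Ndrg2 0.0091, with length trends removed Fabp7 0.13, and for Slc4a4 0.0020 with DESeq2's size factors in edgeR and 0.0030 with DESeq2. With each sample left out, log2 fold changes that turned ran over Slc1a3 -0.15 to 0.059, Slc6a11 -0.0075 to 0.35, Slc4a4 -0.10 to 0.076, Slc7a11 -0.19 to 0.19, Slc14a1 -0.081 to 0.15, Glul -0.0025 to 0.16, Aqp4 -0.23 to 0.045, Mlc1 -0.17 to 0.015, Hepacam -0.11 to 0.075, Gja1 -0.14 to 0.079, Gfap -0.0097 to 0.23, Aldoc -0.057 to 0.13, Ntsr2 -0.18 to 0.0077, Ndrg2 -0.13 to 0.020, Clu -0.19 to 0.029, Apoe -0.087 to 0.17, Fabp7 -0.14 to 0.027, Acsl6 -0.0056 to 0.084. The difference in log2 ratio of Slc1a2 to Slc1a3 ran over -0.16 to 0.025, that of Slc1a2 to Sox9 over -0.10 to 0.091, and that of Slc1a3 to Aldh1l1, which did not turn, over -0.37 to -0.016. The causes of these turns were not tested. The 95% intervals of Mt1, Mt2, Mt3, Cst3, Slc6a11 and Slc7a10 reach past 1.5-fold.

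Samples with the same title letter did not deviate together for letters A, B and E, with correlations across genes of -0.018, 0.037 and -0.021. For letter C the correlation was 0.34, the best match of both samples. The highest correlation, 0.35, was between AM6545 E and vehicle A. Because not every sample correlated best with its own letter, the letter was not taken as a pairing. With the letter as a replicate block, Clu was 0.066, Slc7a10 -0.0087 and the ratio of Slc1a2 to Slc1a3 0.025, and 0 genes passed the adjusted threshold, with 759 at an unadjusted p under 0.05.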

Other observations

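Markers of 2 other cell types of the hippocampus showed no gene past the adjusted threshold of edgeR's test. Of 8 markers of oligodendrocyte precursors 5 were higher with AM6545, 0 at an unadjusted p under 0.05, with a median log2 fold change of 0.021 and sums of 238 to 259 CPM in AM6545 samples and 210.1 to 279 CPM in vehicle samples. Of 6 tested markers of neural stem cells 2 were higher, with a median of -0.11. At an unadjusted p under 0.05 was 1, beside 7.21% of all genes. Sums over the list were 235 to 264 CPM in AM6545 samples and 253 to 397 CPM in vehicle samples. Oligodendrocyte markers had a median of -0.090, microglial markers of 0.054 and neuronal markers of 0.12. Snhg11, an RNA retained in the nucleus, had a log2 fold change of -0.063.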
